A study of Mus musculus with 24 samples.

Results

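Oxidative phosphorylation is the last stage of aerobic energy metabolism. In the inner mitochondrial membrane, complexes I and II pass electrons from NADH and succinate to ubiquinone, complex III passes them on to cytochrome c, and complex IV to oxygen, while complex V (ATP synthase) uses the proton gradient built on the way to make ATP. Most subunits are encoded in the nucleus and the rest in mitochondrial DNA, and neurons, whose ion pumps consume much of the brain's ATP, depend on both sets. The genes described here were chosen by symbol alone and are mostly nuclear structural subunits. This choice leaves out Ndufab1, listed further on with the electron carriers, and takes in the inhibitor Atp5if1 and the supercomplex factor Cox7a2l. They are protein-coding genes of the NADH dehydrogenase (Nduf a, b, c, s and v), succinate dehydrogenase (Sdh) and cytochrome bc1 (Uqcr and Cyc1) series. The cytochrome c oxidase (Cox4i, Cox5, Cox6, Cox7 and Cox8) and ATP synthase (Atp5) series were also taken. The annotation held 87 such genes, of which 84 were among the 18647 genes of the count table. Complex I had 36 of them, complex II 4, complex III 9, complex IV 17 and complex V 18, with Ndufa4 counted in complex IV, where its protein sits. The mitochondrially encoded subunits were not analysed here.

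RNA of the microdissected hippocampal CA1 region was sequenced in 24 libraries, 3 for each of 8 groups. Status epilepticus (SE), a seizure that does not end by itself, was induced in adult C57Bl/6N mice (age at least 60 days, weight at least 20 g) by 335 mg/kg of the muscarinic agonist pilocarpine, 20 min after 1 mg/kg scopolamine methyl nitrate, which limits its effects outside the brain, and animals that entered SE were given 4 mg/kg diazepam 40 min after its onset. Tissue was taken 6, 12, 24, 36 or 72 h later (SE 6 h to SE 72 h). Control mice, examined at 12, 36 and 72 h (Ctr 12 h, Ctr 36 h and Ctr 72 h), had the same treatment with saline in place of pilocarpine, so scopolamine was common to all groups, and animals injected with pilocarpine that did not develop SE were left out of the study. SE 12 h, 36 h and 72 h were compared with the controls of the same time, and SE 6 h and 24 h, which had none of their own, with all 9 control libraries. These last 2 comparisons therefore share their controls with each other and with the rest. The labels do not say that each library is a separate animal. The p-values measure the spread between these libraries that remains after 1 factor for unwanted variation, estimated from the same libraries, is fitted.

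A gene was tested where its counts were high enough in enough libraries, which held for 18153 genes and for 83 of the 84 members; Cox8b, the heart and skeletal muscle isoform of subunit VIII, had at most 5 counts in a library and was not tested. "Called" means an adjusted p of at most 0.05 in edgeR's quasi-likelihood test, and levels are counts per 1000000 counts of a library (CPM). The members were highly expressed, with a median level of 6.03 log2 CPM against 3.96 for all genes tested, and 75 of the 83 stood above the latter. Together they took 0.767 ± 0.007% of all counts in SE 12 h and 1.03 ± 0.05% in Ctr 72 h (SD, n = 3 each), the lowest and highest group means. Their transcripts were short, with a median length of 1014 bp against 3105 bp. Per kilobase of transcript, Atp5f1b (548 CPM per kb), Cox8a (513) and Cox6a1 (472) had the highest mean levels and the isoform Cox4i2 (1.34) the lowest of the tested members.

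The libraries were not equal. Totals ran from 2663936 to 30133731 counts, and Ctr 72 h was the shallowest group, with 2663936 to 11680209. The 5 markers of CA1 pyramidal cells (among them Wfs1, Fibcd1, Mpped1 and Pou3f1) were detected in every library, but at unequal sums, from 302 to 1440 CPM. In addition, 8 markers of sensory ganglia, a tissue outside the brain, summed to over 100 CPM in 6 libraries. These were Ctr 72 h replicate 2 (1645 CPM), SE 6 h replicate 3 (306), SE 12 h replicate 1 (619), SE 36 h replicate 3 (787) and SE 72 h replicates 1 and 2 (869 and 457), against at most 69.4 CPM in the other 18 libraries. These 6 are called the ganglion-marked libraries. The counts of genes called are given with and without them, except for SE 72 h against Ctr 72 h. The marker level of neurons, over 8 genes, was 7485 to 9973 CPM in Ctr 12 h and 5885 to 6412 in SE 12 h. It was 8202 to 8415 in Ctr 36 h and 5962 to 6781 in SE 36 h, and 8036 to 8474 in Ctr 72 h and 5429 to 5490 in SE 72 h. In SE 24 h it was 5703 to 7162 CPM. Of the 8 genes, Nefl and Stmn2 had 1200 and 884 CPM in the ganglion-marked Ctr 72 h replicate 2. In the other libraries they had at most 851 and 602 CPM. In RNA of whole tissue, fewer cells of a type and less RNA per cell cannot be told apart. The part of the lower neuronal marker level in the results that follow was not tested.

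The start regions of 4 members are shown because the genes differ in the time course described further on and carry the DNA motifs for which this gene family is known. The 250 bases before the annotated start are RefSeq sequence of build GRCm38.p6, read 5′ to 3′ on the gene's strand, which is the minus strand for each, and capitals mark every match to the core of the NRF1 motif, the ETS motif CCGGAAG, bound by GABP, or the GC box GGGCGG, on either strand. The window of Ndufs3 is chr2:90904722-90904971, with a GC box that overlaps an ETS motif and another GC box before it. That of Sdha is chr13:74350241-74350490, with 3 NRF1 motifs. Those of Sdhd, chr9:50603850-50604099, and of Atp5pd, chr11:115419920-115420169, each hold an NRF1 and an ETS motif.
Ndufs3: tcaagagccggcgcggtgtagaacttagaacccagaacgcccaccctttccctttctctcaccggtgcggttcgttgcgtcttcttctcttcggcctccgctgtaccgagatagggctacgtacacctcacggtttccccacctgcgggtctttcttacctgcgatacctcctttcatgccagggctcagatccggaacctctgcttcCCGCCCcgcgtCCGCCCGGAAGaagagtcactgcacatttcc
Sdha: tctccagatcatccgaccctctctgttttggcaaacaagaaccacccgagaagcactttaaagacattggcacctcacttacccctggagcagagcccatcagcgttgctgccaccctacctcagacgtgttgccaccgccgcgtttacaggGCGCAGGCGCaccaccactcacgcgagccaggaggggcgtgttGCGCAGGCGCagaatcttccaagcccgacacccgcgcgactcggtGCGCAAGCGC
Sdhd: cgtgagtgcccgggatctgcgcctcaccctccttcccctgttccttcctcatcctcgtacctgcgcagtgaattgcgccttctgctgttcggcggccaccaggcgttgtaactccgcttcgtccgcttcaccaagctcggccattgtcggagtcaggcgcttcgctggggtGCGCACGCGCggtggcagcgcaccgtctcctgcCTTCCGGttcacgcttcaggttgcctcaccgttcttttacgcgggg
Atp5pd: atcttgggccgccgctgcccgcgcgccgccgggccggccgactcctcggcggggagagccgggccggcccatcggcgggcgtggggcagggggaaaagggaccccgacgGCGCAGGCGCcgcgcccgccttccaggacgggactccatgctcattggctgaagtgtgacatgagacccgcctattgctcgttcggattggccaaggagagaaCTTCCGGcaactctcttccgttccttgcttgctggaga

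Start regions of 67 members were available, as windows from 250 bases before to 50 bases after the start. The NRF1 motif was in 16 of them (23.9%), against 4.78% of 27025 windows of all genes, and the ETS motif in 15 (22.4%) against 9.12%. The motif AAGATGGC of YY1 was in 9 (13.4%) against 2.88%, that of estrogen-related receptors, AAGGTCA, in 8 (11.9%) against 4.66%, and the GC box in 26 (38.8%) against 35.9%. None of the motifs was in 19 windows. The windows of members were richer in G and C than those of all genes, with a median of 57.3% against 52.7%. A match is a run of letters and not a measured binding site. Of the tested members with a window, 27 were called lower at 12 h and 39 were not. The NRF1 motif was in 22.2% of the former and 25.6% of the latter, the ETS motif in 14.8% and 28.2%, and the YY1 motif in 18.5% and 10.3%.

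At 12 h after SE, the mean levels of complexes I, II, III and V lay lower in all 3 SE libraries than in all 3 controls. Those of complex IV, whose mean includes scarce isoforms, overlapped. Of the 83 members, 34 were called lower and none higher, where 18.1% of all genes tested were called lower and 20.4% higher. The median log2 fold change was -0.30 for the members and 0.01 for all genes, and 75 members had a value below 0, as had 49.6% of all genes. In 53 members all 3 SE 12 h libraries lay below all 3 Ctr 12 h libraries, and in 1 they lay above, where 23.2% and 24.5% of all genes did so. Single changes were small: of those called, only Ndufs3 passed a log2 fold change of 0.66 in size, against 11.4% of all genes on the lower side, and the median size of change was 0.32 for the members and 0.49 for all genes. Without the 6 ganglion-marked libraries, 31 members were called lower and 2 higher, where 19.5% and 21.3% of all genes were. The count fell to 19, 16 and 20, all lower, without Ctr 12 h replicate 2, Ctr 12 h replicate 3 and SE 12 h replicate 3, respectively.

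**Figure D1:**
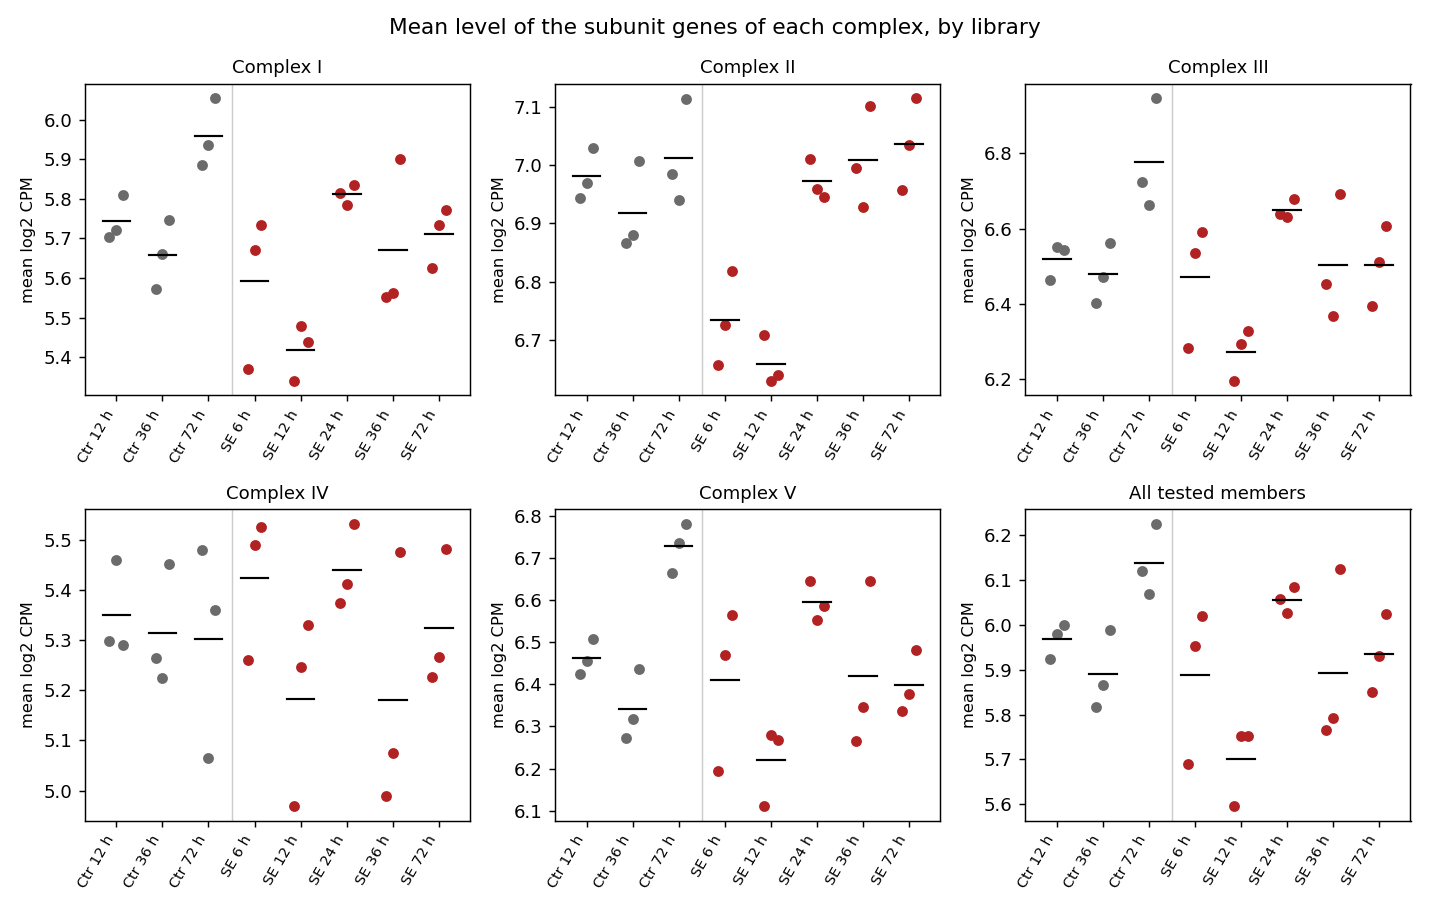
Mean level of the tested members of each complex, and of all together, in log2 CPM (y axis) in every library (points) by group (x axis), controls in grey and SE in red, with bars at the group means. For complex I the SE 12 h libraries lie at 5.34 to 5.48, below the Ctr 12 h libraries at 5.70 to 5.81, and Ctr 72 h has the highest group mean, 5.96.

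Complex I, the entry point for NADH, had 19 of its 36 members called lower at 12 h (median log2 fold change -0.36). Its mean level was 5.42 ± 0.07 log2 CPM in SE 12 h and 5.75 ± 0.06 in Ctr 12 h (SD, n = 3). By the position assigned here, 6 of 10 genes of the NADH-oxidising arm, 4 of 5 of the ubiquinone-reducing arm and 9 of 21 of the membrane arm were called lower. Ndufa9 was counted with the membrane arm, and these shares depend on such placements.

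Ndufs3 encodes a core subunit of the ubiquinone-reducing arm and lies on chromosome 2 at 90724969 to 90735284 of GRCm39. Its level was 71.0, 67.8 and 72.6 CPM in Ctr 12 h and 46.1, 42.5 and 42.5 CPM in SE 12 h. The groups were far apart, and the log2 fold change of -0.69 (s.e. 0.10, adjusted p = 4.05e-05) was the largest in size of any complex I member at that time. Kbtbd4, whose gene overlaps it on the opposite strand and whose reads could not be kept apart in unstranded counting, had -0.02 (adjusted p = 0.966). Ndufs3 also has 1 near-identical copy elsewhere in the genome.

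Ndufs1, the largest iron-sulphur subunit of the NADH-oxidising arm (chromosome 1, 63182058 to 63216236), had 134, 122 and 137 CPM in Ctr 12 h and 100.3, 81.0 and 77.5 CPM in SE 12 h. The groups did not overlap and the log2 fold change was -0.60 (s.e. 0.09, adjusted p = 5.38e-05). Ndufv1, which binds NADH, had 147, 161 and 149 CPM in Ctr 12 h and 111, 114 and 112 in SE 12 h, a log2 fold change of -0.44 (s.e. 0.10, adjusted p = 0.00214). All 3 SE 12 h libraries were below all 3 controls in both of these genes. Ndufs3, Ndufs1 and Ndufv1 kept their call at 12 h under all 13 other settings and whichever library of the SE 12 h and Ctr 12 h groups was left out.

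In complex II, which oxidises succinate and also belongs to the citric acid cycle, 3 of 4 members were called lower at 12 h. Sdha, the flavoprotein (chromosome 13, 74469359 to 74498436), had 451, 438 and 480.4 CPM in Ctr 12 h and 321, 324 and 321 CPM in SE 12 h. The 3 SE libraries lay close together and below every other library of the study, and the log2 fold change was -0.50 (s.e. 0.09, adjusted p = 0.00013), while Ccdc127, which overlaps it, had 0.04 (adjusted p = 0.817). The membrane anchors Sdhc and Sdhd had log2 fold changes of -0.30 (adjusted p = 0.0205) and -0.34 (adjusted p = 0.0183), and Sdhb, the iron-sulphur subunit, -0.14 (adjusted p = 0.327).

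In complex III, 4 of 9 members were called lower at 12 h. They included both core proteins, Uqcrc2 with 172, 161 and 181 CPM in Ctr 12 h against 137, 112 and 126 in SE 12 h (log2 fold change -0.45, s.e. 0.11, adjusted p = 0.00285) and Uqcrc1 (-0.26, adjusted p = 0.0378). Of the redox subunits, cytochrome c1 (Cyc1) was called lower at -0.34 (adjusted p = 0.0118), and the Rieske protein (Uqcrfs1) had -0.07 (adjusted p = 0.643).

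Complex IV had the smallest share of calls at 12 h, with 3 of 16 tested members lower (18.8%, against 18.1% of all genes), and its mean level overlapped between SE 12 h and Ctr 12 h. The scarce isoforms Cox4i2, Cox6a2, Cox6b2 and Cox7a1 count in this share and weigh as much in the mean as the abundant subunits. The SD of the mean over the SE 12 h libraries was 0.19 log2 CPM, against 0.07 in complex I. Those called were Cox6c (-0.32, adjusted p = 0.0372), Ndufa4 (-0.38, adjusted p = 0.0349) and Cox7a2l (-0.39, s.e. 0.11, adjusted p = 0.00825). Cox7a2l had 72.2, 87.8 and 95.2 CPM in Ctr 12 h against 68.6, 56.0 and 71.2 CPM in SE 12 h. It is grouped here as a factor for supercomplexes of complexes III and IV, and its function in these mice was not measured. Cox4i1, a regulatory subunit, had -0.15 (adjusted p = 0.327), and Cox5a had 0.24 (adjusted p = 0.268). The largest value of the complex, in the scarce isoform Cox6a2, was -0.59 (adjusted p = 0.231). Whether the complexes differed in their change was not tested.

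In complex V, 5 of 18 members were called lower at 12 h. Atp5pf, the coupling factor of the peripheral stalk, had 104, 104 and 110.2 CPM in Ctr 12 h and 77.4, 78.9 and 75.0 CPM in SE 12 h. The groups were separate, with a log2 fold change of -0.46 (s.e. 0.09, adjusted p = 0.000334). Of the genes that overlap it, Gabpa moved the other way (0.45, adjusted p = 0.00775) and Jam2 had 0.27 (adjusted p = 0.225). Of the catalytic head, the alpha subunit Atp5f1a had -0.35 (s.e. 0.09, adjusted p = 0.00427) and the beta subunit Atp5f1b -0.22 (adjusted p = 0.0878). The inhibitor Atp5if1, which stops the enzyme from consuming ATP, had -0.43 (s.e. 0.22, adjusted p = 0.12).

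At 6 h, 10 members (12%) were called lower and 2 higher, where 16.7% and 23.2% of all genes were. The median log2 fold change was -0.12 and 67 members had a value below 0, against 45.9% of all genes. In 5 members the SE 6 h libraries lay below all 9 controls and in none above them, where 9.27% and 12.9% of all genes did so. Of those called lower, 7 were among the 36 of complex I (19.4%, near the share of all genes), 5 of them among the 10 genes of the NADH-oxidising arm, 2 were the membrane anchors of complex II and 1 was Cox7a2l. None was in complex III or V, where Uqcr11 (-0.27, adjusted p = 0.14) and Atp5po, of the peripheral stalk (-0.39, adjusted p = 0.217), had the largest values. Sdhc had 53.1, 50.6 and 57.1 CPM in SE 6 h and 62.6 to 90.7 CPM in the 9 controls, with no overlap (log2 fold change -0.39, s.e. 0.08, adjusted p = 0.000863). Sdhd, its partner in the membrane, had 62.9, 55.1 and 59.6 CPM in SE 6 h, again below every control (-0.27, adjusted p = 0.0242). Ndufs1 had 95.9, 96.2 and 111 CPM against at least 122 CPM in the controls (-0.38, s.e. 0.08, adjusted p = 0.000694). Ndufs3, at 50.2, 52.9 and 49.0 CPM, overlapped the controls through Ctr 72 h replicate 2 alone, which had 47.1 CPM (-0.45, s.e. 0.09, adjusted p = 0.00043). Without the 6 ganglion-marked libraries the count at 6 h was 23, all lower, where 15.5% of all genes were lower. Without Ctr 72 h replicate 2 alone it was 20. Markers of other cell types also differed at 6 h: the 6 markers of oligodendrocytes summed to 5488 to 5792 CPM in SE 6 h and 2480 to 4404 CPM in the 9 controls, those of astrocytes to 6426 to 7078 CPM against 4557 to 5825, and those of microglia to 204 to 227 CPM against 294 to 392. None of these ranges overlapped, while the neuronal markers, at 7021 to 9165 CPM, overlapped the controls, and the part of these shifts in the subunits' levels was not tested.

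The 2 members called higher at 6 h were the delta subunit of ATP synthase, Atp5f1d (0.37, adjusted p = 0.0163), and Cox6a2, the heart and skeletal muscle isoform of subunit VIa (1.16, s.e. 0.33, adjusted p = 0.00868). Cox6a2 was the single called member past the fold threshold of 0.66, which 15.8% of all genes passed upwards. Cox6a2 reached only 3.60, 3.53 and 2.42 CPM in SE 6 h, lay between 0 and 4.22 CPM over all libraries, and lost its call without the ganglion-marked libraries (0.73, adjusted p = 0.151). Without Ctr 72 h replicate 2 alone, which had 0 CPM, its log2 fold change was 0.56 (adjusted p = 0.205), and its call was lost also without the RUVr factor for unwanted variation, with the range of label numbers in the model and after thinning. Itgad, a scarce gene that overlaps Cox6a2 on the opposite strand, was also called higher at 6 h (2.06, adjusted p = 0.0245).

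At 24 h, 6 members were called higher and 7 lower, where 23.9% and 17.5% of all genes were, with a median log2 fold change of 0.01. Values below 0 were found for 37 members, against 47.4% of all genes, and no called member passed the fold threshold, against 24.1%. The SE 24 h libraries lay below all controls in 3 members and above them in 1, where 10% and 13.6% of all genes did so. Ndufb8, of the membrane arm of complex I, had 59.1, 55.7 and 61.0 CPM in SE 24 h and 38.7 to 51.3 CPM in the controls (0.41, s.e. 0.12, adjusted p = 0.0127). The groups did not overlap. Sdhb (0.26, adjusted p = 0.0177) and Cox5a (0.38, adjusted p = 0.0289) were also called higher, while Sdha (-0.25, s.e. 0.07, adjusted p = 0.00829), Ndufs1 (-0.23, adjusted p = 0.0208) and Cox8a (-0.35, s.e. 0.12, adjusted p = 0.0272) were called lower. The largest values in complexes III, IV and V missed the threshold, in Uqcrq (0.32, adjusted p = 0.0609), Cox6a2 (0.76, adjusted p = 0.0828) and Atp5po (0.57, adjusted p = 0.0532). All SE 24 h libraries carry label numbers from 92 to 104, and with the range of label numbers in the model 5 members were called, all lower. Without SE 24 h replicates 1, 2 and 3 the count was 4, 5 and 5. Without the ganglion-marked libraries 10 members were called higher and 6 lower, where 22.9% and 20.5% of all genes were.

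At 36 h, 2 members were called higher and 3 lower, against 17.2% and 14.5% of all genes, and the mean level of each complex overlapped between SE 36 h and Ctr 36 h. The libraries of single members did not overlap in 9 that were lower and 9 that were higher, where 26.2% and 25.8% of all genes did not. No called member passed the fold threshold, against 21.6% of all genes, and 38 had a value below 0, against 49.7%. Ndufc2, of the membrane arm of complex I, had 47.3, 54.9 and 49.8 CPM in Ctr 36 h and 77.2, 60.4 and 78.5 CPM in SE 36 h (0.51, s.e. 0.12, adjusted p = 0.00353). Cox8a, the ubiquitous isoform of the smallest complex IV subunit, had 301, 317 and 315 CPM in Ctr 36 h and 219, 187 and 244 CPM in SE 36 h (-0.52, s.e. 0.15, adjusted p = 0.0096). Neither gene overlapped between the groups. Cox4i1 had 266, 281 and 296 CPM in Ctr 36 h and 202, 209 and 258 CPM in SE 36 h (-0.33, s.e. 0.12, adjusted p = 0.0374). Sdha was still lower (-0.27, adjusted p = 0.0195), and Atp5pb, of the peripheral stalk, was higher (0.33, adjusted p = 0.042). Cox4i1 lost its call with 5 and Sdha with 4 of 7 libraries left out in turn, and both lost it by library size only and after thinning. In complexes II, III and V the largest values did not pass the test, in Sdhd (0.27, adjusted p = 0.0597), Uqcrq (0.34, adjusted p = 0.12) and Atp5me (0.42, adjusted p = 0.135). Without the ganglion-marked libraries 2 members were called higher and 8 lower, where 16.7% and 14.1% of all genes were. Leaving out a single library gave counts of 2 without Ctr 36 h replicate 2 or SE 36 h replicate 2, of 3 without Ctr 36 h replicate 1, Ctr 36 h replicate 3 or SE 36 h replicate 1, and of 8 without Ctr 72 h replicate 2.

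**Figure D2:**
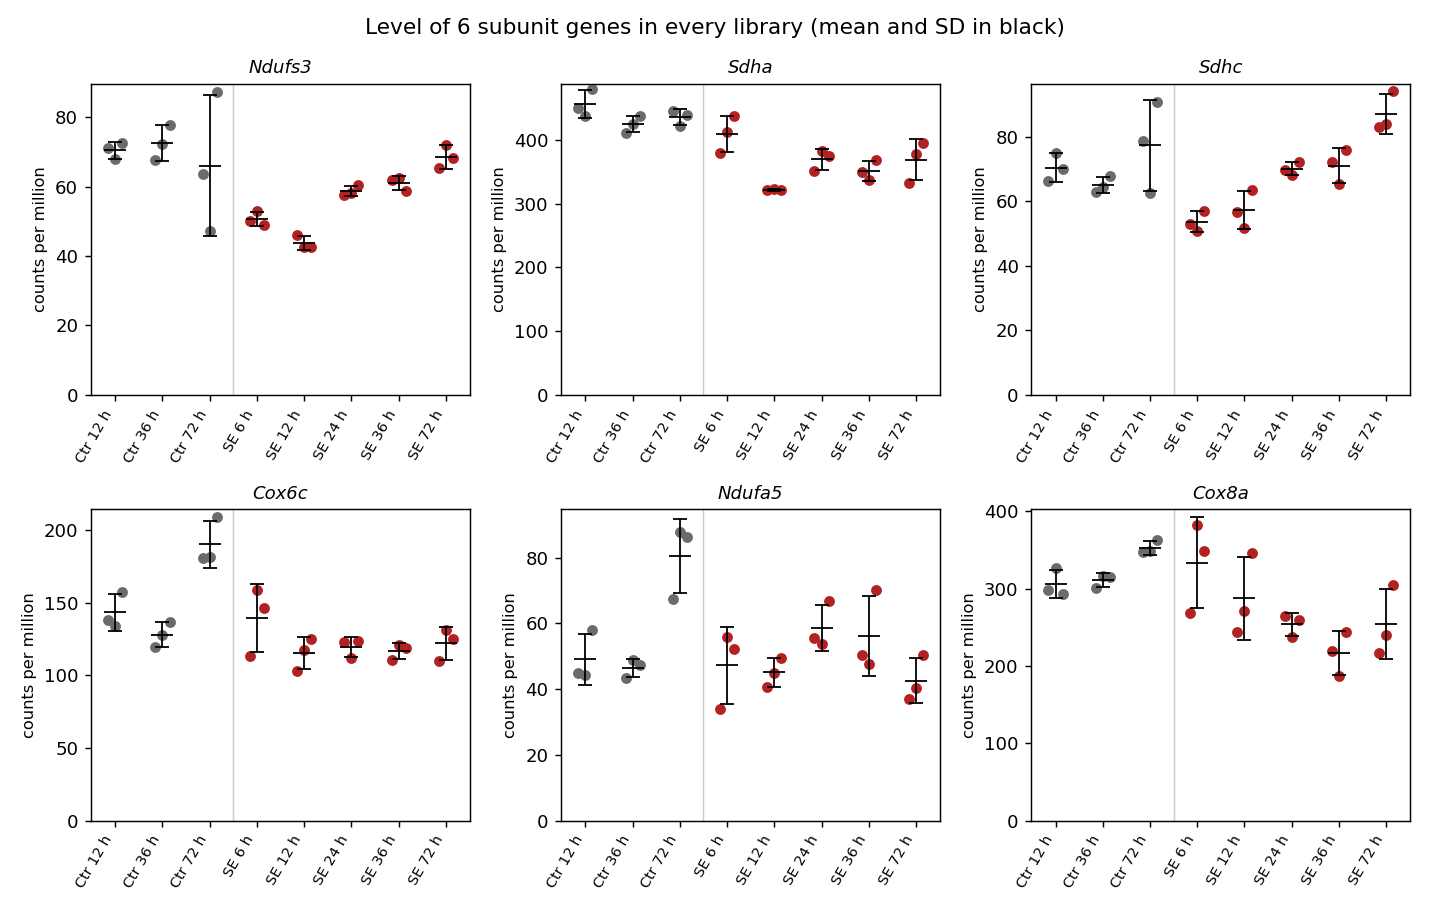
Level in CPM (y axis) of Ndufs3, Sdha, Sdhc, Cox6c, Ndufa5 and Cox8a in every library (points) by group (x axis), with the mean and SD of each group (n = 3). Ndufs3 and Sdha are lowest in SE 12 h, Sdhc is lowest in SE 6 h, and Cox6c and Ndufa5 are highest in Ctr 72 h.

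At 72 h, 24 members were called lower and none higher, where 9.41% and 18.7% of all genes were, and the median log2 fold change was -0.25 for the members and 0.10 for all genes. Values below 0 were found for 72 members, against 43.1% of all genes. The SE 72 h libraries lay below all Ctr 72 h libraries in 36 members and above them in 2, where 13.4% and 19.4% of all genes did so, and 3 members were called lower past the fold threshold, against 4.21%. This comparison rests on its control group. The factor for unwanted variation mainly separates Ctr 72 h replicate 2 (0.80) from replicates 1 and 3 (-0.38 and -0.37). The p-values at 72 h therefore leave out much of the spread between these 3 libraries. The highest control mean of 69 of the 83 members was in Ctr 72 h, the shallow group, all 3 of whose libraries carry label numbers from 162 to 169 while no SE 72 h library does. With the range of label numbers in the model, where Ctr 12 h replicate 3 and SE 12 h replicate 1 are the only other libraries of that range, 8 members were called, all lower. Without the 6 ganglion-marked libraries, which leaves 1 SE 72 h and 2 Ctr 72 h libraries, the members' median was -0.22. That fit takes its spread from the other groups, and its calls do not compare with the counts given here. The count was 12, 11 of them lower, without Ctr 72 h replicate 3, 7 and 10 when SE 72 h replicate 1 or 2 was left out, and 14, of which 13 lower, with Ctr 72 h replicate 2 left out and no factor for unwanted variation.

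In complex IV, 6 of the 11 ubiquitous nuclear subunits were called lower at 72 h, with a median of -0.46 over the 11, and none of the muscle, testis or hypoxia isoforms was. In complex V, 6 of 18 were lower, in complex I 10 of 36, and in complexes II and III 1 each. The mean levels of complexes I, III and V did not overlap between SE 72 h and Ctr 72 h, with differences of -0.25, -0.27 and -0.33 log2 CPM. That of complex IV, which includes the scarce isoforms, overlapped and differed by 0.02.

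Ndufa5, an accessory subunit of the ubiquinone-reducing arm (chromosome 6, 24518659 to 24528012), had 67.4, 87.8 and 86.2 CPM in Ctr 72 h and 37.1, 40.3 and 50.4 CPM in SE 72 h. The groups did not overlap and the log2 fold change was -0.90 (s.e. 0.19, adjusted p = 0.00117), but the other control groups lay between 43.4 and 58.1 CPM. Uqcr11, a small subunit of complex III, had 80.8, 123 and 104 CPM in Ctr 72 h and 51.1, 61.3 and 63.1 CPM in SE 72 h (-0.79, s.e. 0.18, adjusted p = 0.00243), with 59.3 to 77.6 CPM in the other controls. Atp5me, which takes part in dimers of ATP synthase, had 118, 121 and 121 CPM in Ctr 72 h and 69.3, 64.4 and 88.8 CPM in SE 72 h (-0.69, s.e. 0.21, adjusted p = 0.0193), with 58.4 to 84.6 CPM in the other controls. In all 3 genes the SE 72 h libraries thus lay near the range of Ctr 12 h and Ctr 36 h. Without the ganglion-marked libraries their log2 fold changes were -0.59 (adjusted p = 0.0801), -0.53 (adjusted p = 0.0925) and -0.42 (adjusted p = 0.275).

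Cox6c, a complex IV subunit on chromosome 15 (35923634 to 35938392) that is singled out because its adjusted p was the smallest at 72 h, had 181, 181 and 209 CPM in Ctr 72 h and 110, 132 and 125 CPM in SE 72 h. Its log2 fold change was -0.64 (s.e. 0.12, adjusted p = 0.000406), and 2 near-identical copies make its counts uncertain. Cox7a2 (-0.57, adjusted p = 0.00587), Cox7b (-0.53, adjusted p = 0.0148), Cox8a (-0.47, adjusted p = 0.0201) and the inhibitor Atp5if1 (-0.65, adjusted p = 0.0345) were also called lower. Cox7a2 and Cox7b lost their call with the range of label numbers in the model. Cox8a lost it with 3 and Atp5if1 with 5 of 6 libraries left out in turn. Cox7a2, Cox7b, Cox8a and Atp5if1 also lost it without the ganglion-marked libraries, which leaves 1 SE 72 h library. Cox6c and Cox7a2 also differed among the control groups (F-test, adjusted p = 0.0324 and 0.0344).

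Several members called lower at 12 h were not called at 72 h. Ndufs3 was at 65.2, 72.1 and 68.3 CPM in SE 72 h and at 63.7, 47.1 and 87.4 CPM in Ctr 72 h, a log2 fold change of 0.09 (adjusted p = 0.577). Sdhc was at 83.1, 83.9 and 94.2 CPM in SE 72 h and at 78.7, 62.6 and 90.7 CPM in Ctr 72 h (0.18, adjusted p = 0.183), and Cox7a2l at 94.6, 91.5 and 98.9 CPM against 82.6, 68.9 and 82.9 CPM (0.28, adjusted p = 0.0596). The Ndufs3 and Sdhc libraries overlapped between the groups, and those of Cox7a2l did not. Sdhd had 0.26 (adjusted p = 0.0821), and the scarce isoform Cox6b2, the largest value of complex IV, 1.104 (adjusted p = 0.0697). The lowest control value of Ndufs3, Sdhc and Cox7a2l at 72 h was in replicate 2.

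Whether the effect of SE differed between 12 h and 72 h was tested directly, as the difference of both comparisons, whose libraries are separate. In 7 members the effect was higher at 72 h and in 2 lower, where 14% and 8.2% of all genes were. Ndufs3 had a difference of 0.77 (s.e. 0.15, adjusted p = 0.00127) and Cox7a2l one of 0.67 (s.e. 0.15, adjusted p = 0.00469). Both anchors of complex II were in the same group, Sdhd with 0.60 (adjusted p = 0.00955) and Sdhc with 0.48 (adjusted p = 0.0186), as were Ndufa6 with 0.41 (adjusted p = 0.0467) and Ndufb4 with 0.95 (adjusted p = 0.0245). Ndufb4 had as few as 16 counts in a library. Ndufa5 (-0.78, adjusted p = 0.0377) and Atp5mk, a small subunit of ATP synthase (-0.68, adjusted p = 0.0332), had the opposite sign. The Sdhc difference lost its call in 6 of the 13 other settings and with 3 of 12 libraries left out in turn, and that of Ndufs3 with the range of label numbers in the model. Without the ganglion-marked libraries 5 members were higher and 2 lower, with Ndufs3 at 0.61 (adjusted p = 0.0497) and Cox7a2l at 0.69 (adjusted p = 0.0457). The count was 4 without Ctr 12 h replicate 1 or SE 72 h replicate 2, and 5 without Ctr 12 h replicate 2, SE 12 h replicate 2 or SE 12 h replicate 3.

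**Figure D3:**
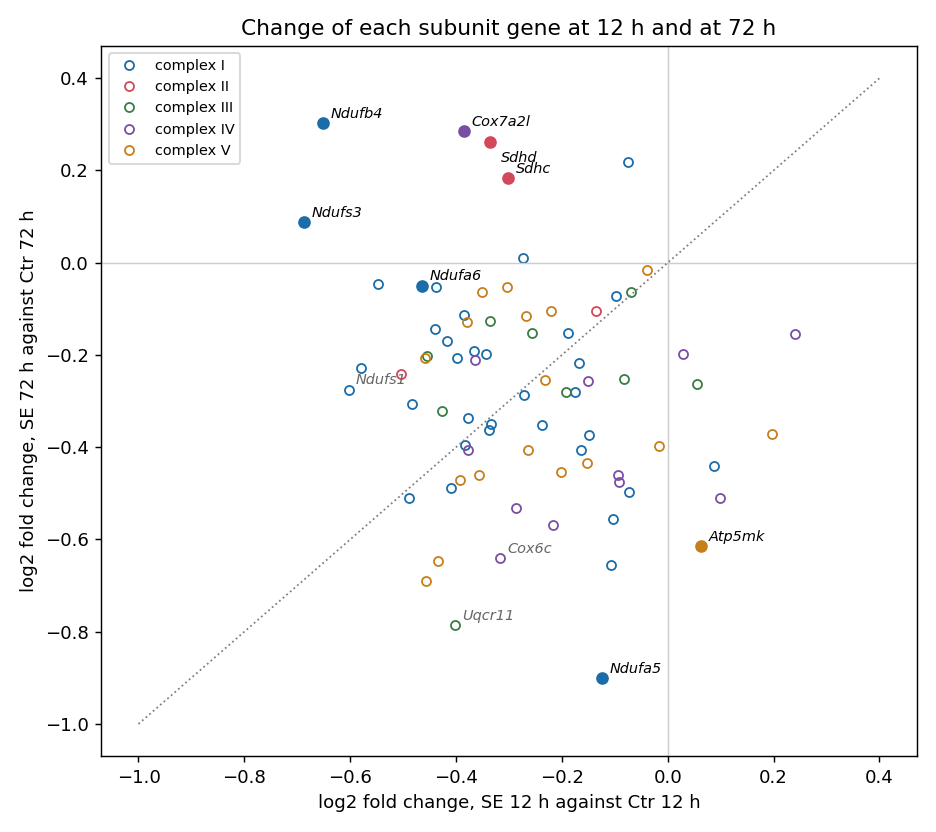
Fitted log2 fold change at 72 h (y axis) against that at 12 h (x axis) for tested members, with 4 isoforms of low level and 1 further member left out, coloured by complex and filled where the difference of the effects had an adjusted p of at most 0.05. The dotted line marks equal change; Ndufs3 lies at -0.69 and 0.09, Ndufa5 at -0.12 and -0.90.

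SE 72 h was also compared with SE 12 h, a comparison with no control group, although the control libraries enter the fit through the spread and the RUVr factor. Here 28 members were called higher and 1 lower, where 19.6% and 17.1% of all genes were, with a median log2 fold change of 0.25 against 0.05. All SE 72 h libraries lay above all SE 12 h libraries in 44 members and below them in 1, where 24.7% and 20.4% of all genes did so. Of complex I, 19 of 36 were higher. Ndufs3 differed by 0.65 (adjusted p = 8.84e-05), Sdhc by 0.61 (adjusted p = 0.000102) and Atp5pf by 0.45 (adjusted p = 0.000422), whereas Sdha, at 333, 378 and 396 CPM in SE 72 h, differed from SE 12 h by 0.20 (adjusted p = 0.0759). Of the genes that overlap Atp5pf, Jam2 was also higher (1.05, adjusted p = 9.12e-05) and Gabpa had -0.15 (adjusted p = 0.382). Whether reads of Jam2 entered the Atp5pf counts was not tested. The member that was lower was Cox5a (-0.45, adjusted p = 0.0386). Without the ganglion-marked libraries 20 were higher and none lower, and without SE 72 h replicate 3 the count was 17, 16 of them higher. Without Ctr 72 h replicate 2 it was 36.

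The genes lower at 12 h and at 72 h, each against its own controls, numbered 9: Ndufa3, Ndufa4, Ndufb3, Ndufb10, Ndufs1, Ndufs7, Sdha, Cox6c and Atp5pd. They made up 10.8% of the members, 26.5% of the 34 and 37.5% of the 24. Of all genes tested 4.48% were lower at both times, which is 24.8% of those lower at 12 h and 47.6% of those lower at 72 h. The 72 h calls of this list rest on Ctr 72 h, with the limits given above for that group. Ndufs1 lost its 72 h call in 8 and Sdha in 7 of 13 other settings, and Ndufs1 with 5 of 6 libraries left out in turn. Ndufa3 and Cox6c also differed among the 3 control groups (F-test, adjusted p = 0.0427 and 0.0324). Sdha had values below 0 in all 5 comparisons and was called at 12, 24, 36 and 72 h, with SE 72 h libraries of 333 to 396 CPM against 422 to 446 CPM in Ctr 72 h (-0.24, adjusted p = 0.0404). At 72 h its call was lost without the ganglion-marked libraries (-0.16, adjusted p = 0.435). Over the 5 SE groups 38 of the 83 members differed, against 46.6% of all genes, and over the 3 control groups 6 did, against 1.55%. These counts were 35 and 0 without the ganglion-marked libraries. SE 12 h had the lowest mean of the SE groups in 56 members, and SE 24 h the highest in 49.

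Several subunits exist as isoforms from separate genes, and CA1 expressed the ubiquitous ones. Cox6a1 ranged from 213 to 358 CPM over the 24 libraries, Cox6b1 from 120.1 to 254 CPM and Cox7a2 from 70.3 to 141 CPM. Their counterparts of muscle, testis or hypoxic tissue stayed low, with Cox6a2 at no more than 4.22 CPM, Cox6b2 5.29, Cox7a1 2.45 and Cox4i2 2.14. The 3 genes for the c ring of ATP synthase encode the same mature protein with different leader peptides, and their mean levels were 219 CPM for Atp5mc3, 70.1 for Atp5mc1 and 10.7 for Atp5mc2. At 12 h they had log2 fold changes of -0.23, -0.27 and -0.20, of which Atp5mc1 passed the test (adjusted p = 0.0329), and 3 copies of Atp5mc2 and 2 of Atp5mc1 elsewhere in the genome limit how well reads can be assigned.

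Of the 84 members, 12 have near-identical copies and 49 overlap another annotated gene. At 12 h, 5 of the 12 with copies and 29 of the other 71 tested were called lower, as were 18 of 48 with an overlapping gene (median -0.32) and 16 of 35 without (median -0.30). Some overlapping genes were themselves lower at 12 h, such as Kctd2 at Atp5pd (-0.42, adjusted p = 0.0133). Others were higher, such as Hycc2 at Ndufb3 (0.83, adjusted p = 4.22e-05).

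The genes around the subunits were followed in the same fit. Of 47 assembly factors, which build the complexes without being part of them, 14 were called lower and 2 higher at 12 h, where 18.1% and 20.4% of all genes were. Coa3, needed to make complex IV, had -0.92 (adjusted p = 1.63e-05), and Ndufaf7, which takes part in building complex I, had -0.53 at 12 h (adjusted p = 0.000138) and between -0.37 and -0.54 at the other times, called at each. The value of Ndufaf7 at 72 h was -0.37 (adjusted p = 0.104) without the ganglion-marked libraries. Of 17 genes of the citric acid cycle and pyruvate dehydrogenase, 11 were lower and 1 higher at 12 h. Idh3g, of isocitrate dehydrogenase, had -0.55 (adjusted p = 5.56e-05). At 72 h the counts were 7 lower and 3 higher of the assembly factors and 3 lower and 0 higher of the cycle genes, where 9.41% and 18.7% of all genes were. When the ganglion-marked libraries were left out, 13 assembly factors and 11 cycle genes were lower at 12 h, where 19.5% of all genes were. At 72 h that leaves 1 SE library, and no counts are given.

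Of 12 genes of electron carriers and nucleotide exchange, Ndufab1 among them, 3 were lower and 2 higher at 12 h, near the shares of all genes, 18.1% and 20.4%. The counts were 3 and 1 without the ganglion-marked libraries, where 19.5% and 21.3% of all genes were. Cycs, which encodes cytochrome c, had 0.06 at 12 h (adjusted p = 0.858), 0.76 at 24 h (adjusted p = 0.00166), 0.69 at 36 h (adjusted p = 0.023) and -0.79 at 72 h (adjusted p = 0.0135). Its value at 72 h was -0.55 (adjusted p = 0.0878) without the ganglion-marked libraries. Ckmt1, the mitochondrial creatine kinase, had -0.90 at 12 h (adjusted p = 0.00114).

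Of 13 regulators of mitochondrial gene expression, 4 were higher and 2 lower at 12 h, with and without the ganglion-marked libraries. Of all genes 20.4% and 18.1% were with them, and 21.3% and 19.5% without. Ppargc1a, which encodes the coactivator PGC-1alpha, had -0.69 (s.e. 0.15, adjusted p = 0.00115), after 0.10 at 6 h (adjusted p = 0.514). Nrf1, whose product binds the NRF1 motif, had 0.42 at 6 h (adjusted p = 0.00638) and 0.64 at 12 h (adjusted p = 0.00159), and Gabpa and Gabpb1, the subunits of GABP, had 0.45 (adjusted p = 0.00775) and 1.06 (adjusted p = 3.33e-05) at 12 h. Esrra, an estrogen-related receptor, had -0.17 at 12 h (adjusted p = 0.327) and Tfam, which maintains mitochondrial DNA, 0.27 (adjusted p = 0.0713). Ppargc1b was called at 6 h (1.61, adjusted p = 0.000608).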

How the data were processed

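Poly(A) RNA libraries (TruSeq v2, which does not mark strand) of 24 CA1 samples were sequenced in paired-end mode. The authors trimmed reads with Trim Galore 0.6.6, aligned them with STAR 2.7.8a to GRCm39 with GENCODE M26 and deposited htseq-count (HTSeq 0.13.5) counts per gene, made without strand, so that reads of overlapping genes on opposite strands, and of near-identical copies, may be lost or shared. The submitters' processing notes also name SAMtools 1.10.

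The deposited counts were used as they stand. Of 18647 genes, 18552 matched the GENCODE M39 annotation of the same build, which gave symbols and positions. Genes were filtered with filterByExpr and tested with edgeR 4.0.16 (R 4.3.3, limma 3.58.1): TMM scaling, quasi-likelihood F-tests of group means over all 24 libraries with 1 RUVr factor for unwanted variation, and Benjamini-Hochberg adjustment over 18153 genes. The factor mainly separated Ctr 72 h replicate 2 (0.80) from replicates 1 and 3 (-0.38 and -0.37). Thresholds were an adjusted p of 0.05 and, for the fold, 0.66 on the log2 scale. Levels are TMM-scaled CPM, and log2 CPM used a prior count of 2. Standard errors were computed from the fold change and F. The fit was tested on simulated data. Copies of at least 95% identity over at least 80% of a transcript were found with minimap2 2.31.

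The members, the related gene lists and the markers were chosen with earlier results of these data known. Genes named are those past both thresholds, the largest change of each complex in each comparison, the main catalytic subunits and the isoform families, and others are examples picked after their values were seen. Values of a few genes are not reported here. Other settings were no RUVr factor, DESeq2 1.42.0, limma-voom, DESeq2 size factors, library size only, other filters, only the compared groups, the range of label numbers (92 to 104, 109 to 122 or 162 to 169) or the replicate number as a term, thinning of all libraries to 2663936 counts, and each library left out. The settings without Ctr 72 h replicate 2 and the RUVr factor, and without the ganglion-marked libraries, were added after seeing the data. Counting error is larger in scarce members and shallow libraries: Ndufb4 had as few as 16 counts in a library, and Cox6a2 none in Ctr 72 h replicate 2. The p-values measure the spread between libraries that is left after the RUVr factor, which mainly follows the spread within Ctr 72 h.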

Additional observations from a re-analysis of the deposited data

Results flagged for a closer look

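In 3 members a single library stood far from the other 8 of the 9 control libraries, by its gap to the nearest relative to the whole range. Uqcrc1, a core protein of complex III, had 263 CPM in Ctr 72 h replicate 3, the library with the fewest counts. Uqcrc2, its partner, had 134 CPM in Ctr 72 h replicate 2, a ganglion-marked library. Cox6b1, the ubiquitous isoform of subunit VIb of complex IV, had 254 CPM in Ctr 72 h replicate 3. All of these libraries belong to Ctr 72 h. Chance flags about 1 in 20 groups in this way.

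For 5 of the genes named by the rule, the difference between the SE effects of 72 h and 12 h passed the test. The effect was higher at 72 h by 0.77 in Ndufs3, 0.48 in Sdhc, 0.60 in Sdhd and 0.67 in Cox7a2l, and differed by -0.78 in Ndufa5 (log2 scale). The libraries of Ctr 72 h enter each of these values.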

How the results depend on the processing

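The count of members called was within 1.5 times the reported count under the settings not given here. The reported counts were 12, 34, 13, 5 and 24 for the comparisons with controls in order of time, 29 for SE 72 h against SE 12 h, 9 for the difference of the 12 h and 72 h effects, 38 over the SE groups and 6 over the control groups. By library size only it was 20 at 6 h, 13 at 36 h and 17 over the control groups, and this scaling moved the median of all genes at 36 h from 0.00 to 0.13 and complex II at 36 h from 0.09 to 0.21 log2 CPM. With DESeq2 it was 8 at 36 h and 19 over the control groups. With limma-voom it was 15 at 72 h, 5 for the difference of effects and 0 over the control groups. Thinned to the smallest library it was 18 at 12 h, 5 for the difference, 24 over the SE groups and 3 over the control groups. With at least 10 counts in every library it was 9 at 36 h. With the compared groups only it was 21 at 24 h, 22 at 36 h, 5 for the difference and 18 over the control groups. With the range of label numbers in the model it was 5 at 24 h, 8 at 72 h and 0 over the control groups, and Cox5a at 24 h turned from 0.38 to -0.0316. Without the RUVr factor it was 1 over the control groups, and with Ctr 72 h replicate 2 also left out 14 at 72 h, 4 for the difference and 0 over the control groups. Without the ganglion-marked libraries it was 23 at 6 h, 10 at 36 h and 0 over the control groups. At 72 h that setting leaves 1 SE library, and its count is left out. The cause of these shifts was not tested.

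With 1 library left out, the count ranged in order of time from 9 to 20, 16 to 36, 4 to 14, 2 to 8 and 7 to 26, and it ranged from 17 to 36 for SE 72 h against SE 12 h, 4 to 11 for the difference, 25 (without SE 72 h replicate 2) to 47 over the SE groups and 0 to 14 over the control groups. Over the control groups it was 0 when Ctr 36 h replicate 1 or 2 or Ctr 72 h replicate 2 was left out, 1 for Ctr 12 h replicate 1, 2 for Ctr 36 h replicate 3, 3 for Ctr 72 h replicate 3 and 14 for Ctr 72 h replicate 1.

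Of the genes named by the rule, Ndufs3, Ndufs1, Ndufv1, Sdha, Uqcrc2 and Atp5pf kept their call at 12 h in each setting. Sdhc, Sdhd, Uqcrc1, Cyc1, Cox7a2l and Atp5mc1 lost it when thinned and with 2 to 5 of 7 libraries left out in turn. At 72 h Ndufa5 and Uqcr11 lost it without the ganglion-marked libraries alone, and Sdha, Ndufs1 and Atp5if1 with 4 or 5 of 6 libraries left out in turn. For the difference of effects, Ndufa5 lost it with 7 of 12 libraries left out in turn, and Cox7a2l kept it throughout.

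Of 9 same-numbered pairs of SE and control replicates, 4 correlated above 0.1 in their deviations (-0.201 to 0.181). The labels do not call the number a pairing, and so few correlations cannot exclude one. With the number as a replicate block 18, 36, 17, 6 and 29 members were called in order of time, 36 for SE 72 h against SE 12 h, 11 for the difference, 52 over the SE groups and 14 over the control groups. Each of these lies above the reported count.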

Other observations

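Of 8 genes of uncoupling and mitophagy, 6 were called lower and 1 higher at 12 h, where 18.1% and 20.4% of all genes were. Ucp2, an uncoupling protein of the inner membrane, was higher at each time, with log2 fold changes of 1.91, 2.40, 2.33, 2.35 and 2.48 in order of time (adjusted p = 1.74e-07, 8.53e-07, 4.57e-09, 8.62e-07 and 6.96e-07). Genes of mitophagy, the removal of damaged mitochondria, were lower at 12 h: Pink1 at -0.75 (adjusted p = 1.96e-05) and Bnip3l at -1.01 (adjusted p = 1.14e-06). Pink1 was also lower at 24, 36 and 72 h (-0.75, -0.96 and -0.59). With the ganglion-marked libraries left out, 6 of the list were again lower and 1 higher at 12 h, where 19.5% and 21.3% of all genes were. Ucp2 was then higher at each time by 2.05 to 2.65.

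The ribosomal protein genes, highly expressed and short like the subunits, were counted in the same way. Of 75 genes of the cytosolic ribosome, 9, 28, 66, 50 and 11 were called higher in order of time, and 1 was called lower, at 72 h. Of 77 genes of the mitochondrial ribosome, 6 were higher and 26 lower at 6 h, 15 and 13 at 12 h, and 24 and 2 at 24 h. The counts were 12 and 3 after 36 h and 4 and 6 after 72 h. Of all genes 23.2%, 20.4%, 23.9%, 17.2% and 18.7% were higher in order of time, and 16.7%, 18.1%, 17.5%, 14.5% and 9.41% lower. In the 18 libraries without ganglion markers above the threshold, 6, 45, 66 and 47 genes of the cytosolic ribosome were higher from 6 to 36 h. Of all genes 18.7%, 21.3%, 22.9% and 16.7% were. Of the mitochondrial ribosome 18 were lower at 6 h and 20 higher at 24 h, where 15.5% and 22.9% of all genes were.

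Markers of other cell types changed in the same libraries. The 7 microglial markers summed to 294 to 392 CPM in Ctr 72 h and 1202 to 1750 CPM in SE 72 h, and all 7 were called higher. The 6 astrocyte markers summed to 5277 to 5680 CPM in Ctr 12 h and 6121 to 8959 CPM in SE 12 h, and to 4557 to 5513 CPM in Ctr 72 h and 12416 to 13987 CPM in SE 72 h. The 5 CA1 pyramidal cell markers summed to 722 to 1153 CPM in Ctr 12 h and 582 to 767 CPM in SE 12 h, and to 775 to 1016 CPM in Ctr 72 h and 302 to 667 CPM in SE 72 h. The part of these shifts in the levels of the subunits was not tested.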
